A study of Mus musculus with 6 samples.

Results

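Flox-only 5hmC regions inside genes are stretches of the mouse genome where a peak of 5-hydroxymethylcytosine (5hmC) was found in both libraries of cells with intact Tet2 and in neither library of cells without it. There were 2235 of them, among 174070 regions made by merging the peaks of all 4 libraries. They were chosen by the deposited peak lists alone. Peaks that shared 1 bp or more were merged, and an autosomal region was kept when both flox lists and neither KO list had a peak in it and its midpoint lay inside the RefSeq span of a protein-coding gene. Of 68548 autosomal regions inside genes, the 2235 made up 3.26%. Because the flox against KO contrast chose these regions, every value of that contrast given here is a description with no test. The noise reference is the same choice made for the 4 mixed pairs of 1 flox and 1 KO library.

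Both groups were made from Kit-enriched bone marrow of C57BL/6 mice that were Tet2fl/fl and carried CreER, a Cre recombinase switched on by 4-hydroxytamoxifen (4-OHT). All cells carried AML1-ETO, a leukaemia fusion protein, from the retrovirus MigR1-AE-IRES-GFP, and grew with the cytokines SCF, IL-3 and IL-6. Per the labels' protocol, KO cultures (Tet2-/-) had been given 200 nM 4-OHT for 2 passages (4 days) and flox cultures (Tet2fl/fl) ethanol, so loss of Tet2, the drug and active Cre cannot be told apart. Cells sorted as immature and myeloid, positive for GFP and CD16/32 and negative for CD11b and Gr1, were taken at passage 5 and gave 2 libraries per group. The labels do not say whether these came from separate cultures, and they do not name the promoter of CreER or the number of mice. Peak lists hold no marker of cell type, so the sort was not checked here.

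TET enzymes oxidise 5-methylcytosine to 5hmC, a step on the way to removal of DNA methylation and also a lasting mark. In many tissues 5hmC is found over the bodies of transcribed genes and at enhancers, and it is usually scarce at the starts of active genes with dense CpG. Tet2 is one of the most often mutated genes of myeloid leukaemia and clonal blood disorders. A peak list shows where the signal passed the caller's threshold, not how much 5hmC was there.

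A small set of these regions lay across RefSeq transcription starts, where the underlying bases can be shown. The 250 bases before 5 such starts follow, from RefSeq on GRCm38.p6, each 5′ to 3′ on the strand of its gene. CpG sites, the main place of 5hmC, are in capitals. Of the starts that belong to a host gene and whose whole promoter window lies inside a flox-only region, these had the highest lower flox score.
Angptl8, chr9:21835260-21835509, plus strand: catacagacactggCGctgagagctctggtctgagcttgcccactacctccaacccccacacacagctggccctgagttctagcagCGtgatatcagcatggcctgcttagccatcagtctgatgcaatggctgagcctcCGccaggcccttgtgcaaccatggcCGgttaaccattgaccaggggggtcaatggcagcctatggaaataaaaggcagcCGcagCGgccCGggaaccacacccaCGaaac
Trak1, chr9:121382544-121382793, plus strand: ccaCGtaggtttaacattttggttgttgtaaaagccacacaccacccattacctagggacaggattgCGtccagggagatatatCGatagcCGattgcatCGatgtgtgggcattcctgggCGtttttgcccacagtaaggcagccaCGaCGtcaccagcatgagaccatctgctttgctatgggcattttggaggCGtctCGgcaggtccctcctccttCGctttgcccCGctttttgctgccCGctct
Podn, chr4:108030987-108031236, minus strand: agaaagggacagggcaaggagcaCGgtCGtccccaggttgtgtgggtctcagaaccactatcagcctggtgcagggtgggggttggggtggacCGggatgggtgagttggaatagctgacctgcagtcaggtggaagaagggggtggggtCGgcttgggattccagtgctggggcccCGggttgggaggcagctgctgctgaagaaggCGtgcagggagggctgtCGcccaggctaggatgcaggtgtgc
Ccni, chr5:93206496-93206745, minus strand: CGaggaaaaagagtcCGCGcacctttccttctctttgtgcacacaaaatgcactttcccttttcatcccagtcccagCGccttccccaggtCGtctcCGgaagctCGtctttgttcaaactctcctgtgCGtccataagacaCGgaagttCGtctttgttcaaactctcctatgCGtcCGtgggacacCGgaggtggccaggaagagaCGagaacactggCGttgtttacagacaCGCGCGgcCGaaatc
Gnmt, chr17:46729166-46729415, minus strand: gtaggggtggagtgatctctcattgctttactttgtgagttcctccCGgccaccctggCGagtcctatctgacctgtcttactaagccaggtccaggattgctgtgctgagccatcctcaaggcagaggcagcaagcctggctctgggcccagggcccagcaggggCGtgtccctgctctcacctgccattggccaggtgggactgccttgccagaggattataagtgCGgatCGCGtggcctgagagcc

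These 5 stretches held from 6 CpG (Gnmt) to 19 (Ccni), with 7 at Podn, 8 at Angptl8 and 13 at Trak1. Angptl8 encodes a secreted regulator of fat clearance from blood and lies within Dock6. The region over it had peak scores of 201.7 and 309.7 in flox replicates 1 and 2. At Trak1, an adaptor gene of mitochondrial transport, the start shown lies inside the longer gene, and the scores were 159.8 and 153.5. At Podn, a gene of a small matrix proteoglycan, they were 110.3 and 123.7. Ccni, which encodes cyclin I, had 108.9 and 84.94, and Gnmt, which encodes a methyltransferase that consumes S-adenosylmethionine, had 81.92 and 176.6. A score is the caller's own value for a peak within its library, with 50 the lowest in every list.

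RefSeq starts were at hand for 16456 of 20661 autosomal protein-coding genes, and hosts without one were not limited to chromosome 18. The counts of regions that follow are therefore lower bounds. Leaving aside chromosome 18, at least 44 flox-only regions inside genes held a RefSeq start. For at least 31 of these regions it was a start of the host gene itself. Whole promoter windows (250 bases before to 50 after the start) lay inside such a region 39 times. Starts close together in the same region, as at Plekhh3 and Gm26637, each count, so some of these windows overlap. CpG counts of these windows ran from 1 to 33 with a median of 8, against a median of 7 over all 32851 windows. The letters TGTGGT, a core bound by RUNX factors, were found on either strand in 6 of the 39 windows (15.4%) and in 16.8% of all windows, and Angptl8 was among the 6. This count says nothing about regions away from starts, for which no sequence was read.

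More regions inside genes were shared by the flox pair alone than by any other pair of libraries. The flox pair had 2235, and the 4 mixed pairs had 1725 (flox replicate 1 with KO replicate 1), 1972 (flox 1 with KO 2), 1612 (flox 2 with KO 1) and 1984 (flox 2 with KO 2). As shares of all autosomal regions inside genes, these are 3.26% against 2.52%, 2.88%, 2.35% and 2.89%. The KO pair alone shared 1859 regions, or 2.71%, a number inside the mixed range. The flox count was 1.23 times the mean of the mixed pairs. When only peaks scoring 100 or more were used, the flox pair had 1149 regions inside genes and the mixed pairs 883 to 1270, so the flox count did not lead. With the 50000 top scores of each list it led, with 1148 against 907 to 1039.

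The lead was seen inside genes and not over all autosomal regions, of which the flox pair had 5069, the KO pair 5136 and the mixed pairs 4119 to 5347. Of the flox-only regions, genes held 44.1% (2235 of 5069, 95% Wilson interval 42.7 to 45.5%, covering counting error over regions only). In the mixed pairs genes held 36.9% to 39.1%, and in the KO pair 36.2%. Regions called in all 4 libraries stood between, at 40.6%. The plot of pairs shows the flox interval above all others. Regions called in a single library had the same order without any agreement between replicates, with 42.9% and 43.0% inside genes for regions of flox replicate 1 or 2 alone and 38.4% and 36.7% for those of KO replicate 1 or 2 alone. When 1 KO list also had a peak beside both flox lists, the share was 40.2% (KO replicate 1) or 39.3% (KO replicate 2).

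**Figure D1:**
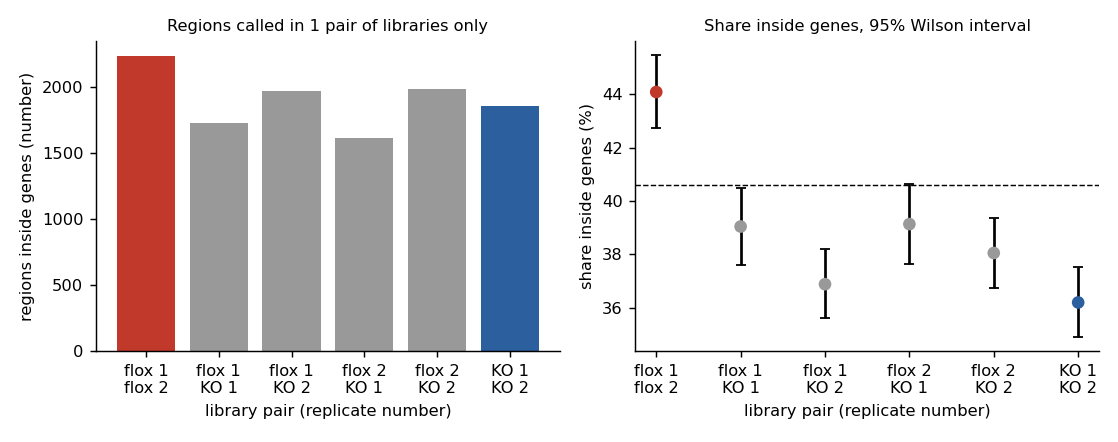
Left, number of regions inside protein-coding genes called in both libraries of a pair and in neither of the others, for the flox pair (red), the 4 mixed pairs (grey) and the KO pair (blue). Right, percent of each pair's autosomal regions that lie inside genes with the 95% Wilson interval, and the dashed line at 40.6% for regions called in all 4 libraries. The flox pair has the highest count, 2235, and the highest share, 44.1%.

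Most flox-only regions inside genes were weak. In flox replicate 1 their scores ran from 50 to 251.7 with a median of 69.65, which was at the 27.0th percentile of that list. In flox replicate 2 they ran from 50.01 to 464.0 with a median of 70.97, at the 28.6th percentile. Neither library gave the higher score throughout, since replicate 2 was higher at 1171 of the 2235. The lower of the 2 flox scores was under 60 at 1033 regions (46.2%) and at least 100 at 105 regions (4.70%). In the mixed pairs, 2.23% to 3.65% of regions inside genes reached 100 in both libraries.

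Widths had a median of 992 bp, with quartiles of 828 and 1181.5 bp, against medians of 923.5 to 944 bp in the mixed pairs. The median was 1312.5 bp for regions inside genes called in all 4 libraries, and 713 to 786 bp for those of a single library. A merged region spans the peaks of all its lists, so widths from different numbers of lists are not like with like. In 2223 of the 2235 each flox library had a single peak. Each flox library covered at least 50% of the merged stretch in 2150, and the called length differed by 2 times or more between the flox libraries in 80.

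**Figure D2:**
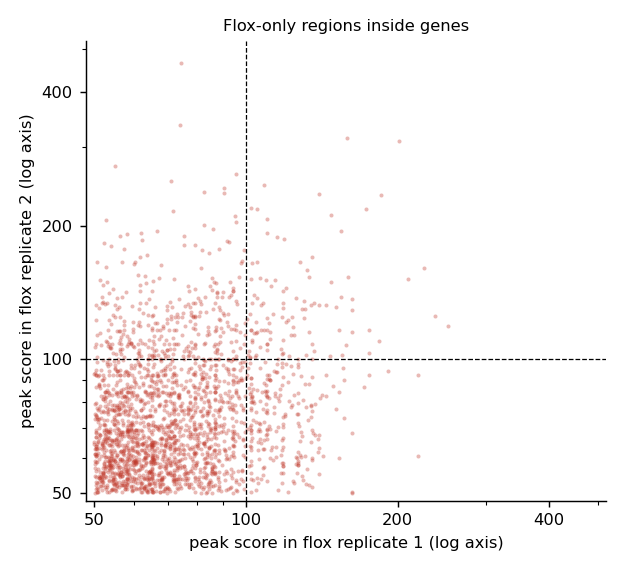
Peak score in flox replicate 1 against flox replicate 2 for the 2235 flox-only regions inside genes, both on log axes, 1 point per region. Dashed lines mark a score of 100, and the area above and to the right of both lines holds 105 regions.

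Examples at the edge of the choice were picked for the lowest scores on either side, so they are weak by selection. Just inside the edge were regions in Adam32 (chromosome 8, 24896884 to 24897833), with flox scores of 50 and 64.43, and in Jcad (chromosome 18, 4617042 to 4617780), with 50 and 65.25. Just outside was a region in Pkd1l3 (chromosome 8, 109667429 to 109668331), with flox scores of 55.65 and 81.53 and a KO replicate 2 peak of 50.01. Another, in Grin2d (chromosome 7, 45831576 to 45832723), had 61.44 and 53.44 and a KO replicate 1 peak of 50.04. In all, 5231 regions inside genes had peaks in both flox lists and 1 KO list. At 1044 of them (20.0%) the KO peak scored under 60, and the median KO score was 76.74.

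Flox-only regions lay in shorter genes and in more gene-rich places than regions of the mixed pairs. The longest host gene of a region had a median length of 114 kb, against 138 to 151 kb in the mixed pairs, 131 kb for regions called in all 4 libraries and 169 kb for the KO pair. Genes under 50 kb held 27.2% of flox-only regions and 20.8% to 23.5% of mixed-pair regions. Genes over 500 kb held 13.6% and 17.4% to 19.2%. Within 500 kb on either side of a region there were 13.1 protein-coding genes on average, against 11.0 to 11.3 in the mixed pairs, 12.4 around regions called in all 4 libraries and 10.6 in the KO pair. These measures lay outside the mixed range, which spans 4 pairs that share libraries, so no test was made. Regions called in a single library had the same order, so it is not particular to regions shared by both flox libraries. Their median host length was 128.2 and 114.1 kb for flox replicate 1 or 2 alone, against 153.2 and 152.2 kb for KO replicate 1 or 2 alone. Genes within 500 kb averaged 11.99 and 12.70 around those flox regions, against 10.52 and 10.76 around those KO regions.

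RefSeq starts were available for the host genes of 1740 flox-only regions. From 1 to 10 kb from a start lay 20.2% of them, against 16.4% to 19.1% in the mixed pairs and 14.9% in the KO pair. Of regions in flox replicate 1 or 2 alone, 18.9% and 22.2% lay there. Over 100 kb away lay 23.7% of flox-only regions, against 27.9% to 29.1% in the mixed pairs and 31.9% in the KO pair. For flox replicate 1 or 2 alone this was 26.8% and 23.9%. Within 1 kb of a start the flox pair had the lowest share of the pairs, 2.82% (49 regions). It was 3.13% to 4.96% in the mixed pairs, 3.82% in the KO pair and 4.72% for regions called in all 4 libraries. Single libraries did not follow the groups, with 3.66% and 3.99% for flox replicate 1 or 2 alone and 2.58% and 3.53% for KO replicate 1 or 2 alone. When genes were cut from start to end into 5 stretches of equal length, these held 19.2%, 18.9%, 21.3%, 22.3% and 18.4% of flox-only regions. The opening stretch thus held less than in any mixed pair (21.3% to 22.7%) and the next to last more (20.0% to 21.0%).

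**Figure D3:**
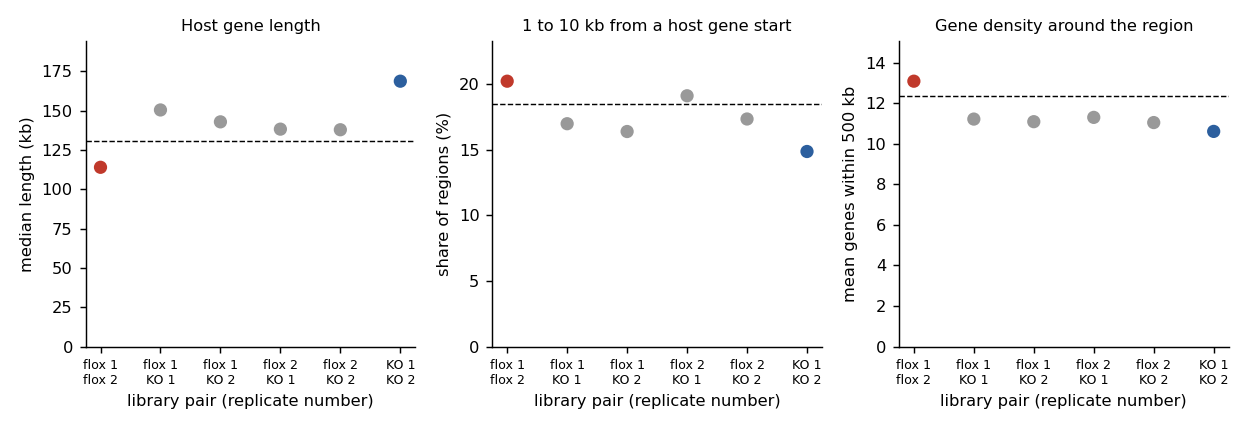
Median length of the longest host gene (left), percent of regions 1 to 10 kb from a start of a host gene (middle) and mean number of protein-coding genes within 500 kb on either side (right) for regions inside genes of each library pair, with the dashed line for regions called in all 4 libraries. The flox pair (red) has the shortest host genes, 114 kb, and the KO pair (blue) the longest, 169 kb.

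The lead of the flox pair differed from chromosome to chromosome. On 13 of 19 autosomes it had more regions inside genes than each mixed pair, and on none fewer than all of them. Chromosome 8 had 146, against 86 to 111 in the mixed pairs, chromosome 10 had 150 against 87 to 114, and chromosome 11 had 164 against 102 to 129 and 98 in the KO pair. On chromosomes 1, 2, 3, 6, 9 and 19 the flox count lay inside the mixed range, as with 144 against 133 to 163 on chromosome 1 and 80 against 70 to 104 on chromosome 3.

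**Figure D4:**
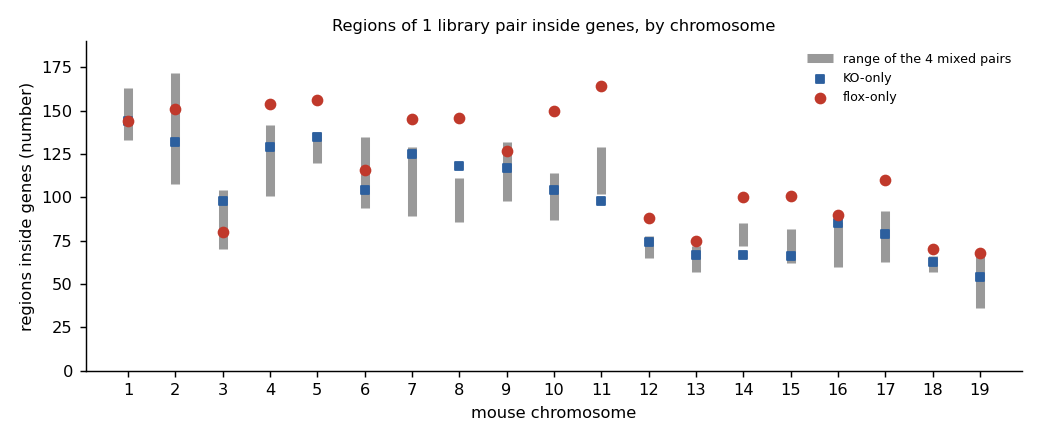
Number of regions inside genes per mouse autosome for the flox pair (red circles), the KO pair (blue squares) and the range of the 4 mixed pairs (grey bars). Red circles lie above the grey bar on 13 of 19 autosomes, with the highest count, 164, on chromosome 11.

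The 2235 regions fell into 1833 of 20661 autosomal protein-coding genes (8.87%), while KO-only regions fell into 1460 (7.07%). A region in overlapping genes counts for each of them, which was so for 28 regions. A single flox-only region was held by 1513 genes, 2 by 243 genes and 3 or more by 77 genes. KO-only regions were also present in 451 of the 1833. An excess of 3 or more flox-only over KO-only regions was found in 34 genes, and the reverse in 44.

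Outside their flox-only regions, host genes had about the same called length in both groups. Together the 1833 genes had 16.00 and 15.62 Mb called in flox replicates 1 and 2 outside these regions, and 15.99 and 15.91 Mb in KO replicates 1 and 2. The groups overlap. Of 1707 host genes with called length outside, 866 had the higher mean in flox and 841 in KO. Flox-only regions were taken out of the flox lengths, while regions found only in KO libraries stayed in the KO lengths. This lowers the flox side by construction, so the same measure was made for each other pair. The mean of the pair's own libraries minus the mean of the others was -0.901% for hosts of flox-only regions. It was -1.69% to -5.51% for hosts of mixed-pair regions and -4.68% for hosts of KO-only regions, so the flox value was the highest.

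Of the hosts in which flox-only regions most outnumbered KO-only ones, 11 are shown. Trerf1, a zinc finger transcription regulator gene on chromosome 17 (47140942 to 47362325), had 6 flox-only regions and 1 KO-only region. The flox libraries had 26526 and 25180 bp called there, the KO libraries 16126 and 17350 bp. Outside the 6 regions the flox libraries had 20633 and 17916 bp, still above both KO libraries. Tiam1, the gene of a Rac1 exchange factor, held 5 flox-only and 2 KO-only regions (chromosome 16, 89787111 to 90145600). Flox called lengths were 29121 and 28649 bp, KO ones 16094 and 16076 bp, and 24254 and 23883 bp remained for flox outside the 5 regions. Unc5a, a netrin receptor gene of 60.87 kb on chromosome 13 (54945151 to 55006018), held 3. Called lengths were 12341 and 11471 bp for the flox libraries, and for the KO libraries 2962 and 7051 bp. Outside the 3 regions the groups overlapped, with 7888 and 6814 bp in flox.

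Other genes of this set differed in direction outside their flox-only regions. Itpr2, a calcium release channel gene of the endoplasmic reticulum (chromosome 6, 146108299 to 146502258), held 5 flox-only and no KO-only regions. Outside them the flox libraries had 32759 and 32843 bp called and the KO libraries 34749 and 35443 bp, so KO was higher. Gas7, a growth arrest gene of the actin cytoskeleton on chromosome 11 (67453257 to 67688992), also held 5. Outside them the flox libraries had 22331 and 22816 bp, the KO libraries 20317 and 20912 bp, and flox was higher. Rbfox1, a splicing regulator gene of 1528 kb, held 7 flox-only and 4 KO-only regions, against 2 to 6 in the mixed pairs. Over the whole gene the flox libraries had 102191 and 103745 bp called, below the KO libraries with 106933 and 105977 bp. Lrp1b and Ptprd, which like Rbfox1 are very long genes, each held 6, against 2 to 5 and 1 to 6 in the mixed pairs.

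**Figure D5:**
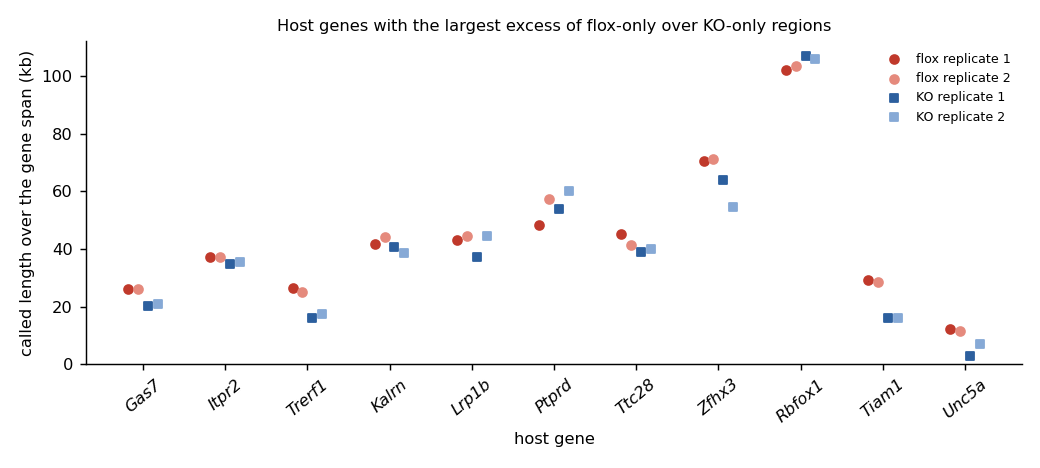
Called 5hmC length over the gene span in kb for 11 hosts in which flox-only regions most outnumbered KO-only ones, 1 point per library (flox red circles, KO blue squares). Both flox points lie above both KO points at Gas7, Itpr2, Trerf1, Kalrn, Ttc28, Zfhx3, Tiam1 and Unc5a, they lie below at Rbfox1, and the groups overlap at Lrp1b and Ptprd. The lengths include the flox-only regions by which these genes were chosen.

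Regions with the highest lower flox score were led by the one over Angptl8 in Dock6 (chromosome 9, 21834877 to 21836820). A second region in Dock6 (21831289 to 21833305) scored 54.88 and 272.6. Trp53bp2, which encodes the p53-binding apoptosis regulator ASPP2, held a region at chromosome 1, 182431574 to 182433063, with 185.7 and 234.7. Dnajb12, a chaperone gene of the endoplasmic reticulum, held one at chromosome 10, 59894962 to 59896532, with 173.0 and 217.6. Mvd, a gene of cholesterol synthesis, held a pair of regions on chromosome 8 (122434155 to 122435415 and 122436087 to 122437734), the second with 158.5 and 314.4. The gene had 2746 and 2805 bp called in flox, all within this pair of regions, and 0 in both KO libraries. Regions in Fryl, Rufy4, Trak1 and Cplane1 completed the 8, with lower scores of 160.9, 154.4, 153.5 and 151.7.

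The 8 widest regions lay in other genes than the 8 with the highest lower score. The widest, in the kinase gene Tnk2 (chromosome 16, 32656140 to 32659758), spanned 3619 bp with scores of 73.94 and 337.3. The next, in the phosphatase gene Synj2, had 71.57 and 215.4, and those that followed lay in Klhl2 (scores 251.7 and 119.1), in the protocadherin gene Pcdh1 on chromosome 18 (38203173 to 38205830, scores 118.8 and 187.0) and in Fam160b1. A region of 2221 bp in Mllt10, a partner gene of leukaemia translocations, was called over 2221 bp in flox replicate 1 and 549 bp in replicate 2. One of 2204 bp lay in Nfatc2, a calcium-responsive transcription factor gene, and one of 2183 bp in the chromatin remodelling gene Arid1b (chromosome 17, 5031425 to 5033607).

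The 10 gene lists reported here give the biology a frame, each described by its counts. They were chosen with earlier results of these data known, so none is independent evidence. Of all genes, 8.87% held a flox-only region. Over all genes, flox-only regions were present at 22.7 per 10 Mb of gene span, KO-only regions at 18.9 and mixed-pair regions at 18.4 on average. Longer genes hold more regions of any kind, so each count stands beside that of the KO pair and the mixed pairs.

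Cytokine receptor and JAK-STAT genes, which carry growth signals of blood cells, held 7 flox-only regions in 6 of 32 genes (18.8%, against 8.87% of all genes). They held 2 KO-only regions and 0 to 4 in the mixed pairs, and the density of flox-only regions was 53.3 per 10 Mb. Csf1r, the receptor gene of macrophage colony-stimulating factor on chromosome 18 (61105572 to 61131139), had a pair of regions with scores of 109.8 and 87.3 at the first and 71.42 and 64.57 at the second. Called lengths were 2961 and 2935 bp for the flox libraries, against 1834 and 1176 bp for the KO libraries. Outside the pair the flox libraries had 1249 and 1109 bp, and the groups overlapped. Csf3r, the receptor gene of the granulocyte factor (chromosome 4, 126023441 to 126044975), had 1 region, at 126031152 to 126032331. The gene had 1076 and 1060 bp called in flox, all within that region, and none in KO, as the choice requires there. Jak1, a receptor-bound kinase gene, had 1 region, at chromosome 4, 101254079 to 101255440, with scores of 69.77 and 76.24. The other hosts were Il3ra, Stat5b and Il6ra, and KO-only regions lay in Lyn and Pias1.

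Stem and progenitor transcription factor genes held 10 flox-only regions, against 6 KO-only regions and 3 to 10 in the mixed pairs. The flox count thus did not leave the mixed range. The 10 lay in 7 of 24 genes (29.2%), namely Runx1, Fli1, Erg, Gata2, Mllt3, Myb and Meis1. Runx1, the gene of the AML1 protein (chromosome 16, 92601466 to 92826074), had 3 regions, at 92621652 to 92622894, 92744229 to 92745310 and 92800592 to 92801943. The flox libraries had 23216 and 25288 bp called over the gene, and 19859 and 22241 bp outside the 3 regions, while the KO libraries had 13628 and 18347 bp. Both flox values lay above both KO values either way. At the ETS factor gene Fli1, 1 of the 2 flox-only regions scored 111.6 and 115.5, and there was 1 KO-only region.

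Myeloid differentiation factor genes, which are short, held 3 flox-only regions, against 1 KO-only region and none in any mixed pair. The 3 lay in 2 of 21 genes (9.52%), a share near the 8.87% of all genes. Spi1, the gene of the myeloid master factor PU.1 (chromosome 2, 91082374 to 91115759), held 2 of the 3 regions and the KO-only region. The flox-only regions lay at 91088628 to 91090035 (scores 51.93 and 99.66) and at 91109203 to 91110405 (97.52 and 115.3). The first was 130 bp from a region called in all 4 libraries. The other host, Gfi1, a repressor gene of granulocyte development (chromosome 5, 107716655 to 107725805), had 886 and 925 bp called in flox and none in KO. All of the flox length lay within its flox-only region.

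At Zbtb16, the gene of the transcription factor PLZF, 2 flox-only regions stood beside 2 KO-only ones. Genes of DNA methylation and hydroxymethylation held 4 flox-only regions in 4 of 21 genes (Dnmt1, Cxxc5, Dnmt3a and Tet3), against 2 KO-only regions and 0 to 1 in the mixed pairs. Dnmt1, the maintenance methyltransferase gene, had a region at chromosome 9, 20945975 to 20946864, with scores of 75.08 and 67.58. Over the whole gene the groups overlapped, since flox had 1625 and 1576 bp called and KO 1305 and 1926 bp. Outside the flox-only region flox had 812 and 686 bp, so KO was higher. Tet2 itself held no flox-only region.

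Leukaemia tumour suppressor genes held 6 flox-only regions in 3 of 21 genes (14.3%), against 2 KO-only regions and 1 to 5 in the mixed pairs. Mixed-pair regions lay in 1 to 5 genes of this list, so the number of host genes did not leave the mixed range. Cux1, a homeobox gene, held 3, with lower flox scores of 53.41 to 56.65. Bcl2l11, the gene of the cell death protein BIM (chromosome 2, 128126038 to 128162547), held 2 and no region of any mixed pair. The flox libraries had 2948 and 5235 bp called there, the KO libraries 0 and 641 bp. Trp53, the gene of p53, held 1, with 71.32 and 66.49.

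Itsn1, a scaffold gene of endocytosis (chromosome 16, 91729310 to 91920591), held 3 flox-only regions and none of the KO pair or any mixed pair. Its region at 91852235 to 91853637 scored 151.3 and 131.2. Over the gene the flox libraries had 13672 and 11191 bp called, above the KO libraries with 8206 and 9404 bp. Outside the 3 regions the groups overlapped, since flox had 11258 and 8672 bp.

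Genes of non-receptor tyrosine kinases and their adaptors held 9 flox-only regions, against 4 KO-only regions and 2 to 9 in the mixed pairs. The 9 lay in 6 of 28 genes (21.4%), namely Ptk2b, Tnk2, Fyn, Blk, Gab2 and Tec. Phagocyte oxidase and granule genes held 1 in 22 genes (4.55%, the integrin gene Itgb2), against 1 KO-only region and 0 to 1 in the mixed pairs. Erythroid and megakaryocyte genes held 2 in 2 of 18 genes (11.1%), Epb41 and Ank1 of the red cell membrane skeleton, against no KO-only region and 0 to 3. Lymphoid genes had the reverse order, with 3 flox-only regions in 3 of 21 genes (14.3%, Foxo1, Bach2 and Tox) against 7 KO-only regions in 5 genes and 2 to 4 in the mixed pairs. Neuronal channel and adhesion genes had a median length of 967 kb, and 23 of 30 (76.7%) held flox-only regions. These regions numbered 55, against 64 KO-only regions and 37 to 68 in the mixed pairs. Their density of 18.2 per 10 Mb was below that of all genes.

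Flox-only regions were mostly separate from other peaks. The nearest region called in all 4 libraries was 9875 bp away in the median, against 10112 to 11014 bp in the mixed pairs, and 8.19% had one within 1 kb, against 6.85% to 9.12%. Another flox-only region inside a gene lay within 5 kb for 71 (3.18%), against 1.24% to 2.69% in the mixed pairs and 2.80% in the KO pair. Examples are the neighbouring pairs in Mvd, Csf1r and Bcl2l11. The 1479 regions inside genes called in all 4 libraries and within 10 kb of a flox-only region had median score percentiles of 72.1 and 72.8 in the flox lists, against 70.6 and 71.4 in the KO lists. In 50.7% of them the flox mean percentile was the higher, against 49.5% of all 27760 such regions. Around mixed-pair regions the pair's own libraries were higher in 46.0% to 53.8%, a range that holds the flox value.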

How the data were processed

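Peaks of 5hmC immunoprecipitation libraries were compared between 2 flox and 2 KO libraries, grouped by sample titles. The IgG control and input of the 6 samples were not used here. CASAVA 1.8, MACS 1.4, Bowtie and the build GRCm38 (mm10) stand in the submitters' processing notes, with no role. Caller settings and the control library were not stated. Each list, as deposited, holds 1 library's peaks with the authors' score, at least 50, and p-value. Depth is unknown, and scores move with it. Lists held 116539 to 122101 peaks over 110.3 to 113.3 Mb.

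Peaks sharing 1 bp were merged. BED starts were counted from 0 and are printed from 1. Genes were 20661 RefSeq spans (GRCm38.p6), of which 16456 have starts in the promoter table, which gave strand. Exons and introns were not analysed here. Called length is the number of bases under peaks. Distances run from midpoints to starts and between edges of regions. Interval code was tested on simulated data and against bedtools 2.31.1 (Python 3.11.15, pandas 2.3.3, numpy 2.4.6, scipy 1.17.1, matplotlib 3.10.9).

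Members and lists were chosen with earlier results of these data known. Named genes were the 12 hosts with the largest excess of flox-only over KO-only regions, hosts of the 8 widest and 8 highest scored regions, up to 3 hosts per list and hosts of 8 regions over a start, leaving out Gm and Rik symbols. Some are given by count only. Other hosts of each list are named after their counts were seen. Some genes and lists are not reported here.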

Additional observations from a re-analysis of the deposited data

How the results depend on the processing

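No paired analysis was possible because no result comes from a test. When only peaks scoring 100 or more were used, the flox pair had 1149 regions inside genes, 1.10 times the mean of the mixed pairs (883 to 1270), and the nearest region called in all 4 libraries was 21034 bp away in the median. When each list was limited to its 50000 highest scores these were 1148 regions, against 907 to 1039 in the mixed pairs, and 23969 bp. Of these 1149 and 1148 regions, 105 and 72 overlapped 1 of the 2235, so most regions under a stricter score are other stretches, where weaker KO peaks no longer count. Without the 10% lowest scored peaks, 1476 of 2065 did, and the distance was 11448 bp. It was also 11448 bp when regions with a peak of another library within 1000 bp were left out. With 1 library left out, and so fewer lists to meet, the count was 4668 (without KO replicate 1) to 7515 (without flox replicate 1), with 7151 without flox replicate 2 and 5093 without KO replicate 2. The share inside genes was 41.3% to 43.4% and the distance 8926 to 9324 bp. The share stayed at 43.3% to 44.8% in the other 8 settings. Depth, which is unknown, limits all of this, since more reads can lift a weak peak over the threshold in any library.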

Other observations

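The microRNA hairpin Mir7050, annotated by RefSeq on chromosome 7 (31040258 to 31040317), lay inside a flox-only region of Fxyd5 with flox scores of 50.27 and 51.13. These scores are near the lowest that the lists hold.

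In 373 of the 1833 host genes no region was called in all 4 libraries, and 126 had no called length outside their flox-only regions in any library. Aprt, a purine salvage gene on chromosome 8, had a flox-only region over its start (122575879 to 122577058, scores 73.71 and 82.33) and no peak in KO. Cplane1, a gene of cilium formation on chromosome 15 (8169025 to 8271158), held 3 flox-only regions and no region of any mixed pair. It had 1830 and 1561 bp called in flox, all within the 3 regions, and 0 and 889 bp in KO. Outside the 3 regions only KO replicate 2 had called length.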
